A study of Homo sapiens with 9 samples.

Results

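The genes described here are 10 genes of the cytosolic heat shock response, HSPA6, HSPA1A, HSPA1B, HSPA8, HSP90AA1, HSPH1, DNAJB1, HSPB1, BAG3 and HSF1, out of 60683 genes in the deposited table. They were picked by symbol, with earlier results of these data known, so their own levels and fold changes are given as a description and without a p-value. All 10 passed the filter on low counts. RNA was sequenced from Hep3B cells, a human liver cancer line, exposed for 24 hours in 3 groups of 3 libraries. Vehicle-treated cells (DMSO) were kept at 20% O2 or at 1% O2, and cells treated with 32-134D, an inhibitor of the hypoxia-inducible factors (HIFs), were kept at 1% O2. The labels call the 3 cultures of a group biological replicates, all of 1 cell line. The compound was not given at 20% O2, so an effect of the compound apart from hypoxia cannot be told apart from its effect on the response to hypoxia.

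Cytosolic chaperones bind unfolded proteins and help them to fold, or hand them on for degradation. HSP70 proteins do so in cycles of ATP binding, started by J-domain proteins such as DNAJB1 and reset by exchange factors such as HSPH1 and BAG3, while HSP90 acts later, on clients such as kinases and receptors. When unfolded proteins accumulate by heat, toxins or other stress, the transcription factor HSF1 is released from chaperones, forms trimers and binds heat shock elements, which are inverted repeats of a GAA unit, in the promoters of these genes. HSPA8 and the HSP90 genes are also expressed without stress, whereas HSPA6 is known as a strictly inducible HSP70 gene.

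The heat shock element is the known HSF1 site, so 1 stretch that holds it is printed for each member with a match. The 250 bases before each start in the RefSeq promoter table (build GRCh38.p14) were searched on both strands for GAANNTTC or TTCNNGAA, 2 facing GAA units, each of which reads the same on either strand. Of 35097 windows in the table, 11.6% held either. Among the members, a window of HSPA6, HSPA1A, HSPA1B, HSPA8, HSP90AA1, DNAJB1 and HSPB1 held one, and those of HSPH1 and BAG3 held none. HSF1 was not in the table. The shares given are of single windows, whereas a member counts here if any of its windows matched. HSP90AA1 had 2 windows and DNAJB1 had 3, and 1 window of each held the motif. A further facing unit in the same spacing, GAA, TTC and GAA or TTC, GAA and TTC with NN between the units, contains the shorter motifs and was in 0.442% of all windows and in windows of HSPA6, HSPA8 and HSP90AA1. HSPA6 and HSPA8 each held a second stretch, which is not printed. Capitals mark the motif letters, and each sequence is written along the strand of its gene.
HSPA6 (chr1:161524443-161524502, plus strand, 97 to 38 bases before the start): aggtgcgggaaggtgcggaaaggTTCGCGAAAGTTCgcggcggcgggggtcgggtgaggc
HSPA1A (chr6:31815426-31815455, plus strand): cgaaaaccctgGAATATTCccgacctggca
HSPA1B (chr6:31827607-31827666, plus strand): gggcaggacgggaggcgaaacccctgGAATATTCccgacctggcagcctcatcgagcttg
HSPA8 (chr11:123062170-123062199, minus strand): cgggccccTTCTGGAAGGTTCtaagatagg
HSP90AA1 (chr14:102087104-102087133, minus strand): cTTCCGGAAGGTTCgggaggcTTCTGGAAa
DNAJB1 (chr19:14518426-14518485, minus strand): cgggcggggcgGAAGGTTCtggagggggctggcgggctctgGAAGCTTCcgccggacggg
HSPB1 (chr7:76302465-76302524, plus strand, 208 to 149 bases before the start): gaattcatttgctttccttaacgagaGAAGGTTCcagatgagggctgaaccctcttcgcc
The stretches of HSPA8 and HSP90AA1 lie in an annotated exon of GENCODE version 29, and the other stretches lie in none. The core of the HIF-binding site, ACGTG or GCGTG on either strand, was in 43.2% of all windows and, among the members, in windows of HSP90AA1, DNAJB1 and BAG3. These matches describe letters in short windows and no binding was measured.

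The libraries held 6013980 to 40549699 counts. CPM, the unit of the levels, are counts per 1000000 counts of the library after scaling with the TMM factors of edgeR, and fold changes come from its quasi-likelihood fit with their standard errors (SE). A gene was called with an FDR below 0.05 and a fold change above 1.5. Of the check genes of hypoxia, CA9, EPO, VEGFA, NDRG1 and ANGPTL4, 5 of 5 were called higher in hypoxia and 5 of 5 lower with 32-134D. The 7 liver markers summed to 11356 to 19334 CPM in the libraries. The 7 markers of blood, endothelium, fibroblasts, macrophages and squamous epithelium summed to 1.18 to 2.87 CPM, with KRT5 at 0 in all libraries. Single markers moved with the groups. AFP and APOB were called lower in hypoxia, and with 32-134D APOB was called higher, with a log2 fold change of 3.12 (SE 0.17, edgeR FDR 5.98e-09), and TTR and TF lower. Of the other cell types, PECAM1 and COL1A2, at no more than 1.70 CPM in any library, were called lower in hypoxia and higher with 32-134D. The part of these markers in the results was not tested. Replicate 3 of 32-134D stood apart from its group, its counts giving chi-square values, divided by the degrees of freedom, of 36.4 and 32.5 against the other 2 replicates, and these 1.998 between them. In the vehicle groups replicate 1 stood apart as well, with smaller values. At 20% O2 it gave 6.21 and 12.02 against replicates 2 and 3, which gave 1.62 between them. At 1% O2 it gave 7.903 and 11.8 against replicates 2 and 3, which gave 2.48 between them. Replicate 3 of 32-134D had TTR at 9.79 CPM against 37.9 and 34.5, TF at 584 against 1545 and 1505, and AFP at 86.0 against 204 and 194. Without it 8 in place of 7 heat shock genes were called lower with 32-134D than with vehicle at 1% O2 (14.1% of all genes tested). Compared with vehicle at 20% O2, 6 in place of 5 were called higher without it (2.81% of all genes tested).

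In hypoxia the heat shock genes were higher. With vehicle, 9 of the 10 were at least 1.5-fold higher at 1% O2 than at 20% O2 with an FDR below 0.05, and none was lower, where 19.5% of the 22672 genes tested were called higher. HSPB1 was the exception, at 1.29-fold. The fold changes fitted to all libraries ranged from 1.29 for HSPB1 to over 100 for HSPA6, the latter over few counts at 20% O2. The median log2 fold change of the 10 was 1.61 against 0.00 over all genes tested. With 32-134D at 1% O2, 7 were called lower than with vehicle at 1% O2 and none higher, where 13.7% of the genes tested were called lower. The median log2 fold change of the 10 was -0.95, against -0.01 over all genes tested. The libraries of 10 members were separate and higher in hypoxia, and those of 10 were separate and lower with 32-134D, which 32.3% and 30.8% of the genes tested showed in those directions. Since the genes were chosen with these contrasts known, nothing is read from the shares. Together the 10 genes took 0.330% to 0.375% of all counts with vehicle at 20% O2, 0.656% to 0.740% with vehicle at 1% O2 and 0.465% to 0.479% with 32-134D. In bulk RNA, a change in the number of cells that express a gene and a change in RNA per cell cannot be told apart.

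**Figure D1:**
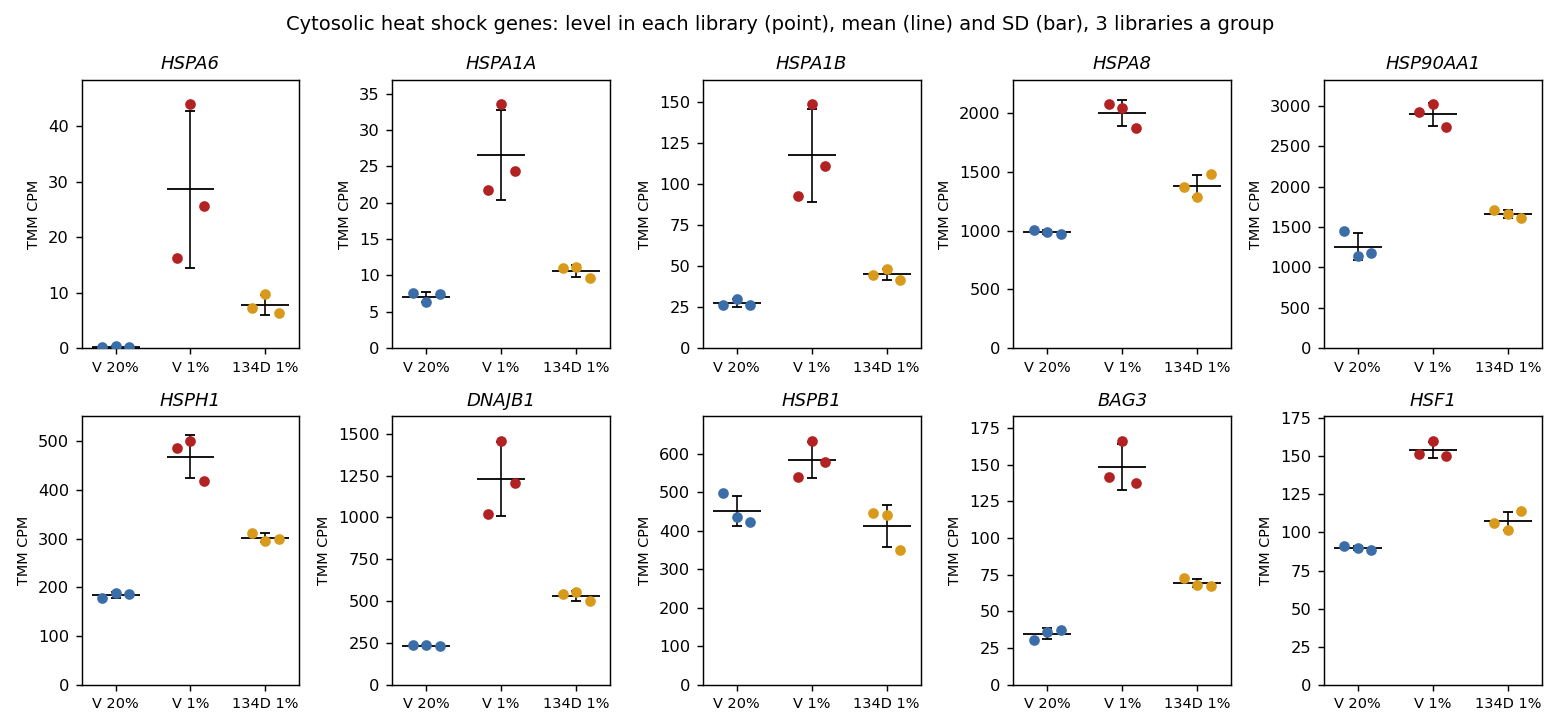
Level of each heat shock gene in the 9 libraries, in CPM after TMM scaling (vertical axes, linear and starting at 0), by group: V 20%, vehicle at 20% O2; V 1%, vehicle at 1% O2; 134D 1%, 32-134D at 1% O2. Points are libraries, lines are means and bars are SD of 3 libraries; for 9 of the 10 genes, all but HSPB1, every 32-134D library lies between those of the 2 vehicle groups.

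Among the inducible HSP70 genes, HSPA6 (ENSG00000173110) showed the widest range. It had 4, 2 and 6 counts in replicates 1, 2 and 3 of vehicle at 20% O2, then 611, 934 and 744 with vehicle at 1% O2 and 254, 291 and 139 with 32-134D. In CPM this was 0.287, 0.314 and 0.182, then 16.2, 44.0 and 25.7, and then 7.20, 9.80 and 6.36. HSPA6 was thus close to undetected at 20% O2, and the 3 groups did not overlap. The summed counts in hypoxia were 115 times those at 20% O2 after scaling, with a 95% exact interval of 66.0 to 224 that covers counting error only. The fitted log2 fold change in hypoxia was 6.94 (SE 0.49). With 32-134D HSPA6 was lower by 3.64-fold than with vehicle at 1% O2, a log2 fold change of -1.86 (SE 0.27), and its summed counts were still 34.9 times those at 20% O2 (95% exact interval 19.9 to 67.9). It was also the most variable member, its highest library with vehicle at 1% O2 standing at 2.72 times its lowest.

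HSPA1A (ENSG00000204389) and HSPA1B (ENSG00000204388) encode the classical stress-inducible HSP70 and lie beside each other on chromosome 6. HSPA1A stood at 7.53, 6.28 and 7.42 CPM with vehicle at 20% O2, at 21.8, 33.6 and 24.4 CPM at 1% O2 and at 11.0, 11.2 and 9.70 CPM with 32-134D. HSPA1B, from 26.2, 29.99 and 26.1 CPM, reached 92.7, 149 and 111 CPM in hypoxia and stood at 44.8, 48.5 and 41.8 CPM with the compound. For both genes the groups did not overlap, and the 32-134D libraries lay nearer to vehicle at 20% O2 than to vehicle at 1% O2. The log2 fold changes in hypoxia were 1.88 (SE 0.16) for HSPA1A and 2.11 (SE 0.14) for HSPA1B. With 32-134D they were -1.31 (SE 0.14) and -1.38 (SE 0.13). The split of reads between these copies is uncertain, since 67.3% of the 100-base stretches of HSPA1A transcripts are also found in HSPA1B. HSPA1A took 20.6% ± 2.85, 18.5% ± 0.505 and 19.1% ± 0.548 (SD, n = 3) of their joint counts in the 3 groups, in the same order. Their sum, which does not depend on the split, gave log2 fold changes of 2.07 (SE 0.14) in hypoxia and -1.37 (SE 0.13) with 32-134D. A noncoding gene of the same strand, AL671762.1, covers 36.5% of the annotated exon bases of HSPA1B and was counted with 1 read in all libraries.

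HSPA6 shares 27.6% of its 100-base stretches with HSPA7, a pseudogene on the same chromosome. HSPA7 had 0 counts in all 3 libraries at 20% O2, 15, 13 and 18 with vehicle at 1% O2 and 3, 7 and 3 with 32-134D. Against a floor of 3 counts over the group, it was at least 9.28-fold higher in hypoxia. The sum of HSPA6 and HSPA7 gave log2 fold changes of 6.96 (SE 0.49) and -1.86 (SE 0.27), close to those of HSPA6 alone.

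HSPA8 (ENSG00000109971), the constitutive HSP70 known as HSC70, was abundant in every group. Its levels were 1009, 987 and 973 CPM with vehicle at 20% O2, 2079, 2050 and 1876 CPM with vehicle at 1% O2 and 1375, 1290 and 1481 CPM with 32-134D. The groups did not overlap. The log2 fold change was 1.02 (SE 0.073) in hypoxia and -0.53 (SE 0.073) with 32-134D, the latter a 1.45-fold difference that fell short of the 1.5-fold threshold. Without replicate 3 of 32-134D, the highest of its group, the log2 fold change was -0.59 and HSPA8 would have been called. In both comparisons its fold change was smaller than those of the 3 inducible HSP70 genes, a difference given as a description.

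HSPH1 (ENSG00000120694), an HSP110 protein that exchanges the nucleotide of HSP70, stood at 178, 189 and 186 CPM with vehicle at 20% O2, 485, 501 and 419 CPM with vehicle at 1% O2 and 311, 294 and 300 CPM with 32-134D. Its groups were separate, and those at 20% O2 and with 32-134D varied little. The log2 fold change was 1.34 (SE 0.077) in hypoxia and -0.63 (SE 0.075) with 32-134D. The latter lay just past the threshold and was -0.57 with DESeq2, below it. It also fell below without replicate 1 of vehicle at 20% O2 (-0.57) or replicate 2 of vehicle at 1% O2 (-0.58), and with scaling to total counts (-0.45), which would leave 6 of the 10 genes called lower. Over the alternatives run, 7 of 168 member values of this comparison lost their call, those given here among them. With at least 10 counts in every library, a filter that left out HSPA6, 5 members were called lower (13.7% of all genes tested).

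DNAJB1 (ENSG00000132002), the J-domain protein that delivers substrates to HSP70, had the largest fold change in hypoxia after HSPA6. It went from 236, 236 and 231 CPM with vehicle at 20% O2 to 1022, 1458 and 1208 CPM with vehicle at 1% O2, and stood at 546, 553 and 499 CPM with 32-134D. Even the lowest hypoxic library was above the highest 32-134D library, which in turn was above all libraries at 20% O2. The log2 fold change was 2.39 (SE 0.11), or 5.25-fold, in hypoxia, and -1.21 (SE 0.10) with 32-134D. TECR overlaps DNAJB1 on the opposite strand, over 5.75% of the annotated exon bases of DNAJB1, with 23.6% as many counts. Whether strand was used in counting is not given in the sources used here, so reads in the overlap cannot be assigned with certainty.

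HSP90AA1 (ENSG00000080824), the inducible cytosolic HSP90, stood at 1445, 1141 and 1175 CPM with vehicle at 20% O2, at 2921, 3022 and 2740 CPM with vehicle at 1% O2 and at 1716, 1662 and 1609 CPM with 32-134D. The groups did not overlap, although replicate 1 at 20% O2 came near the 32-134D libraries. The log2 fold change was 1.21 (SE 0.089) in hypoxia and -0.80 (SE 0.088) with 32-134D. Its constitutive paralog HSP90AB1, which was not a member, rose as well, by a log2 fold change of 0.77 (SE 0.065, edgeR FDR 1.21e-07), from 1570, 1527 and 1539 CPM to 2652, 2701 and 2573 CPM. With 32-134D HSP90AB1 stood at 1936, 1859 and 2020 CPM, a log2 fold change of -0.45 (SE 0.065, edgeR FDR 4.55e-05) that did not reach 1.5-fold. HSP90AA1 therefore made up more of the joint counts of both genes with vehicle at 1% O2, 52.3% ± 0.631 (SD, n = 3), than at 20% O2, 44.7% ± 2.84, or with 32-134D, 46.2% ± 1.59. The libraries of vehicle at 1% O2, from 51.6% to 52.8%, lay above all others in this share.

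HSPB1 (ENSG00000106211), the small heat shock protein HSP27, holds unfolded proteins without using ATP. It stood at 497, 435 and 424 CPM with vehicle at 20% O2, 539, 634 and 579 CPM with vehicle at 1% O2 and 447, 440 and 350 CPM with 32-134D. The hypoxic libraries were above all others, whereas the libraries at 20% O2 and with 32-134D overlapped. Neither difference reached 1.5-fold, with log2 fold changes of 0.37 (SE 0.099) in hypoxia and -0.50 (SE 0.099) with 32-134D. HSPB1 was the one member whose mean with 32-134D lay below that of vehicle at 20% O2, with a log2 fold change of -0.13 (SE 0.099).

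BAG3 (ENSG00000151929) couples HSP70 and small heat shock proteins to selective autophagy. It stood at 30.5, 36.3 and 37.7 CPM with vehicle at 20% O2, at 141, 166 and 138 CPM with vehicle at 1% O2 and at 72.5, 68.1 and 67.4 CPM with 32-134D. The 3 groups were well separated. The log2 fold change was 2.09 (SE 0.098), or 4.25-fold, in hypoxia, and -1.10 (SE 0.092) with 32-134D.

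HSF1 (ENSG00000185122), the transcription factor of the response, was itself higher in hypoxia. Its mRNA stood at 91.3, 89.8 and 88.7 CPM with vehicle at 20% O2, 152, 160 and 150 CPM with vehicle at 1% O2 and 106, 102 and 114 CPM with 32-134D. The libraries of each group lay close together and no groups overlapped. The log2 fold change was 0.78 (SE 0.069) in hypoxia and -0.52 (SE 0.068) with 32-134D, the latter 1.44-fold and below the threshold. With scaling to the total counts in place of TMM the hypoxia value was 0.56, also below the threshold. DGAT1 overlaps HSF1 on the opposite strand, over 2.62% of the annotated exon bases of HSF1, with 31.0% as many counts. HSF1 is activated mainly as a protein, which was not measured.

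**Figure D2:**
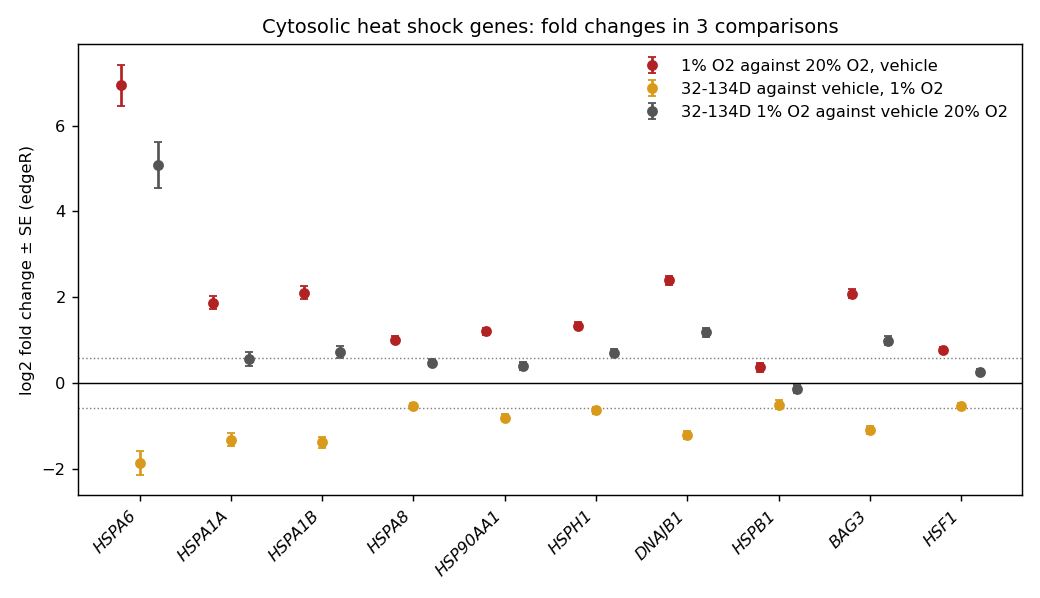
Log2 fold changes of the 10 heat shock genes with their standard errors (vertical axis, edgeR fit of 9 libraries) in the 3 comparisons, which share libraries. Dotted lines mark 1.5-fold; hypoxia values are above 0 for every gene and 32-134D values below 0, with HSPA6 at 6.94 and -1.86 and HSPB1 at 0.37 and -0.50.

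The third comparison asked what remained of the difference in the presence of 32-134D, by setting 32-134D at 1% O2 against vehicle at 20% O2. HSPA6, DNAJB1, BAG3, HSPA1B and HSPH1 were called higher, 5 of the 10, where 3% of the genes tested were called higher and 0.516% lower, and none of the 10 was called lower. The log2 fold changes were 1.18 (SE 0.10) for DNAJB1, 0.99 (SE 0.097) for BAG3, 0.73 (SE 0.14) for HSPA1B and 0.71 (SE 0.076) for HSPH1. HSPA1A, at 0.56 (SE 0.16), fell just short of 1.5-fold, and summed with HSPA1B it gave 0.70 (SE 0.14). HSPA8 at 0.48 (SE 0.073), HSP90AA1 at 0.41 (SE 0.088) and HSF1 at 0.26 (SE 0.069) stayed below 1.5-fold. For 9 members all 3 libraries with 32-134D were above all 3 at 20% O2, a separation that 17% of the genes tested showed in that direction. With an FDR below 0.05 alone 9 of the 10 were higher, where 7.81% of the genes tested were, and with a 2-fold threshold 2 were, where 1.25% were. The 3 comparisons share libraries pairwise and are not independent of each other.

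Within vehicle at 1% O2, replicate 2 was the highest of the 3 libraries for 9 of the 10 members, all but HSPA8. The highest library of this group was 2.72 times the lowest for HSPA6, 1.60 times for HSPA1B, 1.54 times for HSPA1A and 1.43 times for DNAJB1, and 1.06 times for HSF1. Without replicate 2 the log2 fold change with 32-134D was -1.42 for HSPA6, -1.17 for HSPA1B and -1.12 for HSPA1A, in the same direction as with it. The hypoxia log2 fold change of HSPA6 was 6.49 without replicate 2 and 6.94 with it. In the 32-134D group replicate 3, the library that stood apart from that group, was the lowest for 7 of the 10. Without it the log2 fold changes with 32-134D ran from -1.73 for HSPA6 to -0.40 for HSPB1, all in the same direction as with it.

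Levels can be compared between genes only per length, here as CPM per kilobase of annotated exon. The length merged all annotated exons of a gene, from 8390 bases for HSPH1 to 1634 for HSPB1, so the order depends on the annotation. HSPA1A and HSPA1B share 67.3% and 68.8% of their 100-base stretches, so their levels may be too low if shared reads were dropped. With vehicle at 20% O2, HSPB1 (276), HSP90AA1 (239) and HSPA8 (204) led, followed by DNAJB1 (63.8), HSPH1 (22.0), HSF1 (16.9), BAG3 (12.7), HSPA1B (10.9), HSPA1A (2.85) and HSPA6 (0.110). The ranges of HSPB1 and HSP90AA1 overlapped, as did those of BAG3 and HSPA1B. With vehicle at 1% O2, HSP90AA1 came first (551), then HSPA8 (413), HSPB1 (357) and DNAJB1 (335), and HSPA6 reached 12.1, within the range of HSPA1A at 10.7. HSPH1 (55.8), BAG3 (54.0) and HSPA1B (46.6) followed each other with overlapping ranges, and HSF1 stood apart at 29.05. HSPA8, HSPB1 and DNAJB1 were not all distinct there: the ranges of HSPB1 overlapped those of both its neighbours. With 32-134D the order was HSP90AA1 (317), HSPA8 (285), HSPB1 (252), DNAJB1 (145), HSPH1 (36.0), BAG3 (25.2), HSF1 (20.2), HSPA1B (17.8), HSPA1A (4.28) and HSPA6 (3.28). The ranges of HSPA8 and HSPB1 overlapped there, as did those of HSF1 and HSPA1B and of HSPA1A and HSPA6.

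**Figure D3:**
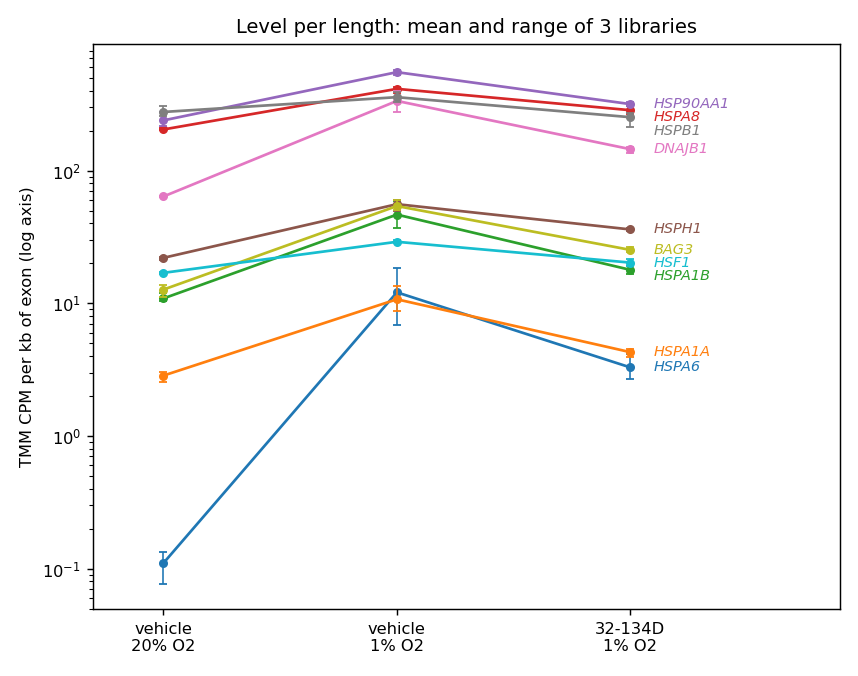
Level per length of the 10 heat shock genes, in TMM-scaled CPM per kilobase of annotated exon (log axis), by group. The length merged all annotated exons of a gene, so the order depends on the annotation. Points are means and bars the range of 3 libraries. DNAJB1 goes from 63.8 to 335 and comes within the range of HSPB1 with vehicle at 1% O2, and HSPA6 goes from 0.110 to 12.1.

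The wider cytosolic chaperone network was described with 8 lists of 84 other genes, 80 of which were tested. These lists were also chosen with earlier results of these data known. Their counts and FDR values are therefore given as a description, and nothing is read from the shares. In hypoxia 40 of the 80 rose and 1 fell, where 19.5% of all genes tested were called higher and 20.3% lower. The median log2 fold change was 0.61, unchanged with HSPA7 at its value against the floor of 3 counts, and was 0.00 over all genes. With 32-134D, 25 of the 80 fell and 2 rose, with 13.7% of all genes called lower and 16.2% higher, and the median was -0.45 against -0.01. With scaling to total counts 14 of the 80 fell, where 8.15% of all genes were called lower and 21.0% higher. Compared with vehicle at 20% O2, 11 were called higher with 32-134D and none lower, where 3% and 0.516% of all genes tested were. The shares of all genes given here are the same for each list below. At an FDR below 0.05 without the fold threshold, 56 were lower with 32-134D than with vehicle at 1% O2, where 25.5% of all genes tested were, and 4 were lower in hypoxia, where 25.6% were. With scaling to total counts, the hypoxia values of HSP90AB1 (0.56), HSPA9 (0.47), BAG2 (0.57), BAG4 (0.55), ST13 (0.48) and DNAJB11 (0.39) and the 32-134D values of AHSA1 (-0.56), CHORDC1 (-0.53), DNAJA2 (-0.50) and DNAJB6 (-0.50) were below 1.5-fold.

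Other HSP70 and HSP110 genes were mixed. In hypoxia 2 of 8 rose, HSPA7 and HSPA4L, and 1 fell, and with 32-134D 1 rose and 1, HSPA7, fell. HSPA4L, an HSP110 gene, rose by a log2 fold change of 1.01 (SE 0.10, edgeR FDR 8.04e-07), and HSPA2, an HSP70 best known from the testis, fell by 1.25 on the log2 scale (SE 0.16, edgeR FDR 1.19e-05). With 32-134D HSPA2 rose by 0.87 (SE 0.16, edgeR FDR 0.000352), 1 of the 2 genes of the network that did. HSPA1L, which lies next to HSPA1A and is also known from the testis, stayed at 0.314 to 1.65 CPM in all libraries, and the groups overlapped (hypoxia log2 fold change 0.30, SE 0.31, edgeR FDR 0.439).

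Among HSP90 and its cochaperones, 11 of 20 were called higher in hypoxia and none lower, and with 32-134D 7 were called lower and 1 higher. At an FDR below 0.05 alone, 13 were higher and 1 lower in hypoxia, where 27.9% and 25.6% of all genes were. CDC37L1, a relative of the kinase cochaperone CDC37, rose by 1.59 (SE 0.11, edgeR FDR 1.25e-08) and fell by 0.89 with the compound (SE 0.099, edgeR FDR 3.78e-06). CHORDC1 rose by 1.54 (SE 0.094, edgeR FDR 4.38e-09). AHSA1, which stimulates the ATPase of HSP90, rose by 1.27 (SE 0.070, edgeR FDR 1.68e-09) and fell by 0.75 with 32-134D (SE 0.069, edgeR FDR 5.81e-07). STIP1, the adaptor between HSP70 and HSP90, fell by 0.78 with 32-134D (SE 0.067, edgeR FDR 3.27e-07). The gene that rose with 32-134D was FKBP5, an immunophilin of steroid receptor complexes, at 0.68 (SE 0.13, edgeR FDR 0.000684). It was named after its value was seen, and without replicate 3 of 32-134D its log2 fold change was 0.46, below the threshold.

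The J-domain genes start the HSP70 cycle. In hypoxia 7 of 12 tested were called higher and none lower, and 4 were called lower with 32-134D. At an FDR below 0.05 alone, 9 were higher and 1 lower in hypoxia, where 27.9% and 25.6% of all genes were. DNAJB4, a close relative of DNAJB1, rose by 2.73 (SE 0.11, edgeR FDR 8.29e-11) and fell by 1.42 (SE 0.097, edgeR FDR 4.08e-08). DNAJB2 rose by 1.50 (SE 0.092, edgeR FDR 4.66e-09) and fell by 1.16 (SE 0.090, edgeR FDR 1.34e-07). DNAJA2 rose by 1.21 in hypoxia (SE 0.075, edgeR FDR 5.01e-09), and DNAJB6, known to keep aggregation-prone proteins soluble, fell by 0.69 with 32-134D (SE 0.069, edgeR FDR 1.31e-06). DNAJA2, named there after its value was seen, was the other gene that fell, also by 0.69 (SE 0.073, edgeR FDR 2.30e-06).

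Of the other small heat shock genes, 6 of 9 were tested and 1 was called in each comparison. That gene was HSPB8, the partner of BAG3 in chaperone-assisted autophagy, with 4.02, 5.18 and 4.41 CPM at 20% O2, 32.6, 33.7 and 28.7 CPM at 1% O2 and 10.6, 8.15 and 6.40 CPM with 32-134D. It rose by 2.83 (SE 0.17, edgeR FDR 4.21e-09) and fell by 1.90 (SE 0.15, edgeR FDR 1.47e-07), with no overlap between groups. The list of BAG genes other than BAG3 also held HSPBP1, an exchange factor of HSP70, and ST13, which stabilizes HSP70 in its ADP-bound state. Of these 3 of 7 rose, BAG2 by 0.78 (SE 0.11, edgeR FDR 1.63e-05), BAG4 by 0.76 (SE 0.097, edgeR FDR 8.47e-06) and ST13 by 0.69 (SE 0.068, edgeR FDR 6.12e-07), and none was called with 32-134D. At an FDR below 0.05 alone, 5 of the 7 were lower with the compound.

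TRiC, the ring chaperone that folds actin and tubulin, and prefoldin, which delivers substrates to it, made up a list of 14 subunits. In hypoxia 8 rose and none fell, where 19.5% of all genes tested were called higher. For 14 of 14 the hypoxic libraries were separate and higher, which 32.3% of all genes tested showed. PFDN4 rose by 1.26 (SE 0.13, edgeR FDR 1.33e-06), CCT4 by 1.14 (SE 0.085, edgeR FDR 3.18e-08) and TCP1 by 1.06 (SE 0.078, edgeR FDR 3.10e-08). With 32-134D 5 fell, among them PFDN4 by 0.82 (SE 0.13, edgeR FDR 7.52e-05), VBP1 by 0.65 (SE 0.098, edgeR FDR 6.71e-05) and CCT4 by 0.65 (SE 0.084, edgeR FDR 1.62e-05). The values of CCT4 and VBP1 lay close to the threshold and fell below it with scaling to the total counts, to -0.46 for both. The remaining genes that fell, named after their values were seen, were CCT2 and PFDN5, each by 0.59 (edgeR FDR 9.61e-06 and 7.72e-05).

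Regulators of HSF1 and further known HSF1 targets made up the last cytosolic lists. HSF2, the factor most like HSF1, went from 19.003, 16.2 and 15.7 CPM to 45.5, 49.1 and 45.6 CPM in hypoxia and to 28.3, 25.6 and 27.2 CPM with 32-134D. It rose by 1.46 (SE 0.096, edgeR FDR 8.71e-09) and fell by 0.79 (SE 0.089, edgeR FDR 4.35e-06). IER5, an immediate early gene whose product promotes the dephosphorylation of HSF1, rose by 2.58 (SE 0.11, edgeR FDR 1.06e-10) and fell by 1.19 (SE 0.096, edgeR FDR 1.76e-07). These 2 were the ones called of the 6 genes on that list, in both comparisons. Of the 7 other HSF1 targets, 6 rose in hypoxia and 5 fell with 32-134D. DEDD2 rose by 2.63 (SE 0.090, edgeR FDR 1.60e-11) and fell by 1.31 (SE 0.083, edgeR FDR 1.81e-08). JMJD6 rose by 2.63 (SE 0.082, edgeR FDR 6.83e-12) and fell by 1.40 (SE 0.076, edgeR FDR 4.74e-09). ZFAND2A, which binds the proteasome under arsenite stress, rose by 1.51 (SE 0.10, edgeR FDR 1.15e-08). Also lower with 32-134D, and named after their values were seen, were ZFAND2A at -0.93 (edgeR FDR 1.74e-06) and MRPL18 at -0.82 (edgeR FDR 1.61e-06).

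**Figure D4:**
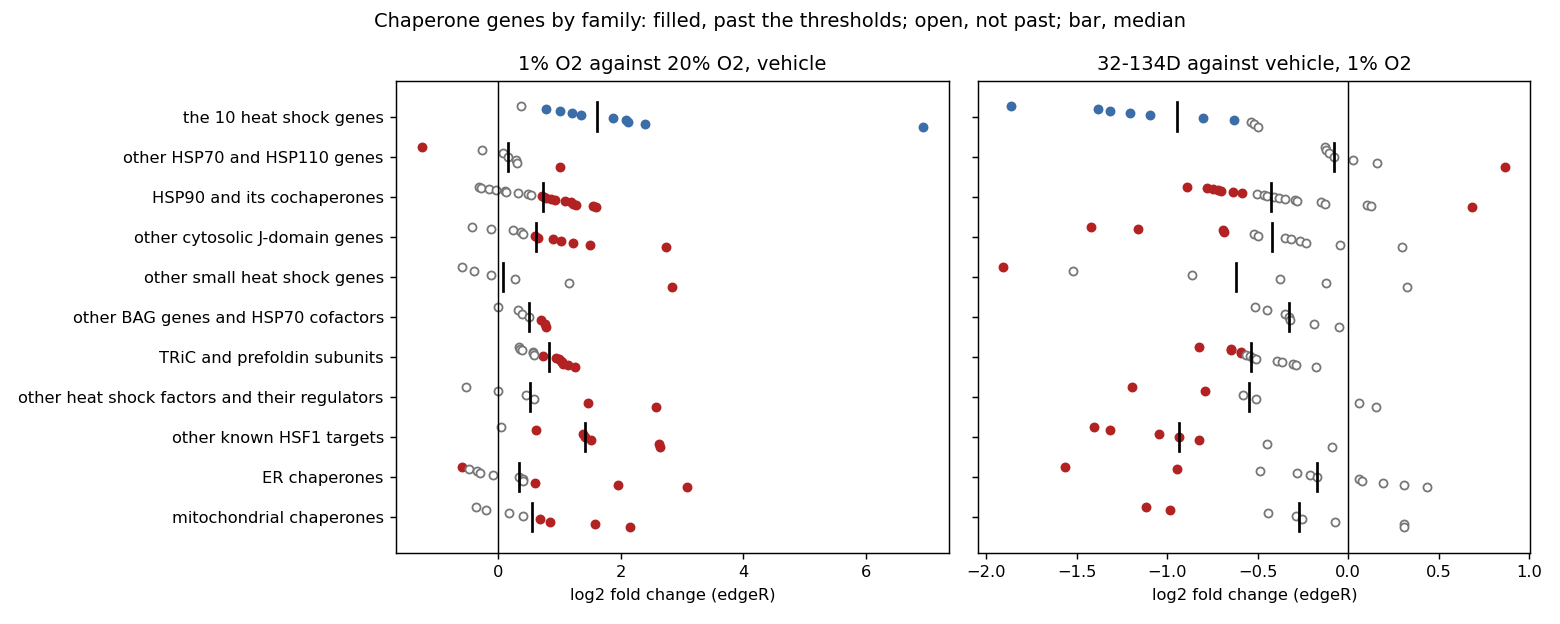
Log2 fold changes (horizontal axes, edgeR) of the tested genes of each chaperone family in hypoxia (left) and with 32-134D (right). Filled points passed an FDR of 0.05 and 1.5-fold, open points did not, and bars are medians; HSPA7, at 0 counts in 1 group, is left out. The 10 heat shock genes have medians of 1.61 and -0.95.

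Chaperones of other compartments, on lists also chosen with earlier results of these data known, were set beside the cytosolic genes. Of 11 ER chaperones, 3 rose and 1 fell in hypoxia, where 19.5% of all genes tested were called higher and 20.3% lower. At an FDR below 0.05 alone, 6 were higher and 4 lower in hypoxia, where 27.9% and 25.6% of all genes were. With 32-134D 2 were called lower and none higher, where 13.7% of all genes were called lower and 16.2% higher. The main ER HSP70, HSPA5, stood at 721, 677 and 676 CPM with vehicle at 20% O2 and at 867, 901 and 870 CPM at 1% O2, a log2 fold change of 0.35 (SE 0.070, edgeR FDR 0.000661) that did not reach 1.5-fold. With 32-134D it was at 756, 745 and 664 CPM (log2 fold change -0.28, SE 0.070, edgeR FDR 0.00364). DNAJB9, an ER J-domain protein, rose by 3.07 (SE 0.095, edgeR FDR 6.14e-12) and fell by 1.56 (SE 0.084, edgeR FDR 4.35e-09). HSPA13, a divergent HSP70 of the ER, rose by 1.96 (SE 0.13, edgeR FDR 7.21e-09) and fell by 0.95 (SE 0.12, edgeR FDR 1.25e-05), and DNAJB11 rose by 0.61 (SE 0.063, edgeR FDR 1.04e-06), 0.56 with DESeq2 and then below the threshold. The gene that fell, named after its value was seen, was SDF2L1, at -0.60 (SE 0.13, edgeR FDR 0.00114).

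Of 8 mitochondrial chaperones, 4 were called higher in hypoxia and none lower, where 19.5% of all genes tested were called higher and 20.3% lower. At an FDR below 0.05 alone, 5 were higher and 1 lower, where 27.9% and 25.6% of all genes were. With 32-134D 2 fell, where 13.7% were called lower. The mitochondrial HSP70, HSPA9, went from 334, 309 and 323 CPM to 561, 501 and 492 CPM in hypoxia, a log2 fold change of 0.69 (SE 0.087, edgeR FDR 8.39e-06), and to 400, 392 and 482 CPM with 32-134D (-0.29, SE 0.086, edgeR FDR 0.0128). Its exchange factors rose, GRPEL2 by 2.16 (SE 0.097, edgeR FDR 2.31e-10) and GRPEL1 by 1.57 (SE 0.071, edgeR FDR 2.52e-10), and with 32-134D they fell by 0.98 (SE 0.087, edgeR FDR 4.62e-07) and 1.12 (SE 0.068, edgeR FDR 1.41e-08). HSPD1, the mitochondrial chaperonin, rose by 0.85 in hypoxia (SE 0.075, edgeR FDR 2.14e-07).

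**Figure D5:**
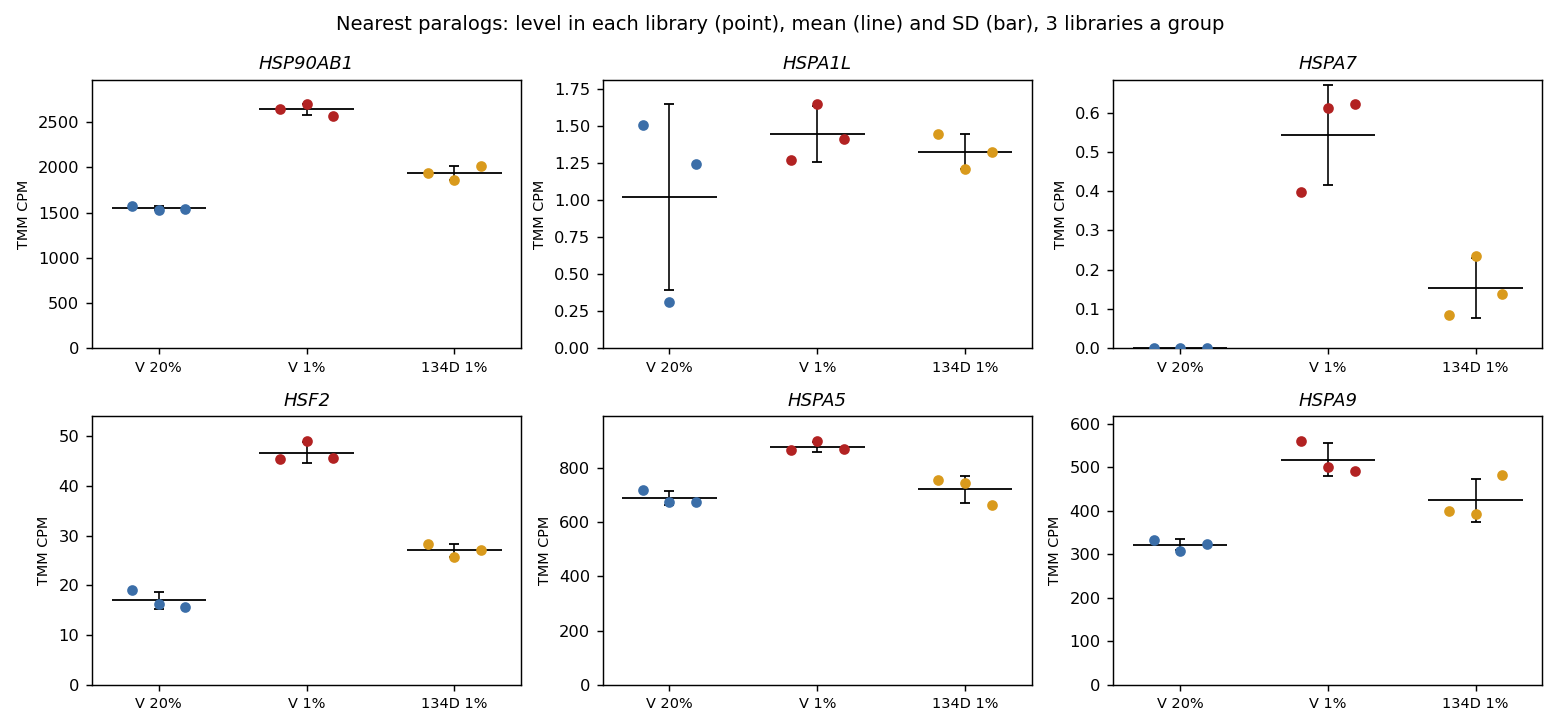
Levels of 6 genes related to the members, in TMM-scaled CPM (vertical axes, linear and starting at 0), in the 9 libraries; points are libraries, lines means and bars SD of 3 libraries. HSP90AB1, HSF2, HSPA5 and HSPA9 have all libraries of vehicle at 1% O2 above those at 20% O2, HSPA1L does not, and HSPA7 has 0 counts in all libraries at 20% O2.

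The genes with the profile most like each member were found among 11505 genes with a mean count of at least 100, as those with the smallest root mean square (RMS) difference of log2 CPM over the 9 libraries after centring. Each gene is named with that difference in log2 units. HSPA6 had no close match, its nearest being GEM (0.47), IGFBP1 (0.67) and ATF3 (0.83). DUSP8, GRB7 and NET1 were nearest to HSPA1A, all at 0.13, and NET1 (0.13), CLK3 (0.14) and MT-RNR2 (0.15) to HSPA1B. MT-RNR1 (0.12), DEDD2 (0.13) and IER5 (0.13) were nearest to DNAJB1, the last 2 from the lists above. BAG3 was closest to STK17B (0.082), PPP1R15B (0.098) and TSC22D2 (0.099), and HSPH1 to NKRF (0.051), C5orf34 (0.074) and CDR2L (0.077). The remaining 4 members had neighbours within 0.052, namely ZNF430, RNF8 and RDH14 for HSP90AA1, POLR1H, AK6 and NR2C2AP for HSPA8, SSNA1, ARF5 and CUTA for HSPB1, and GSK3A, INTS10 and HSP90AB1 for HSF1. Small changes are matched closely by many genes, so a small difference for these members says little. Among the members themselves, HSPA8 and HSF1 were the most alike pair, at 0.11.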

How the data were processed

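For the 9 libraries the authors deposited raw read counts, 1 per Ensembl gene and library. Per the study's methods and the labels, reads were checked with FastQC, mapped with STAR to GRCh38 and counted with featureCounts, and the versions and strand setting are not given in the sources used here. The labels name DMEM/F12 as the medium and the study's methods high-glucose DMEM, and the dose of 32-134D is stated in the study and not in the labels. All 9 columns were matched to samples by name, and 0 were left over. No 2 replicates were duplicates: chi-square values of their counts, divided by the degrees of freedom, ran from 1.62 to 36.4.

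From the counts, 22672 genes with a sum of at least 10 were fitted with edgeR 4.0.16 in R 4.3.3 (TMM scaling, quasi-likelihood test, 1 fit of 9 libraries, biological coefficient of variation 10.5%). Calls needed a Benjamini-Hochberg FDR below 0.05 over all genes tested and a fold change above 1.5, thresholds taken from the study, which used DESeq2. SE is the log2 fold change divided by the square root of its F. With 3 libraries a group, p-values measure the spread between these cultures. Intervals cover counting error only, and floors (3 counts over a group) only that of the group with 0 counts. Positions, exon lengths and overlaps are from GENCODE version 29 on GRCh38, an earlier annotation of the assembly than the one counted. The procedure was tested on simulated data over 5 random draws, in place of a first version with 1 draw that had missed its limit for recovery in 1 run. False calls were above the nominal share in most runs, so calls at an FDR below 0.05 may hold more false calls than that. The simulation changed far fewer genes than were called in these data, so the share of false calls here is not known.

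The members and gene lists were chosen with earlier results of these data known. Of each list, up to 3 called genes with the largest change in the hypoxia and compound comparisons are named if their normalized counts averaged at least 100 in the higher group, besides HSP90AB1, HSPA7, HSPA1L, HSF2, HSPA5 and HSPA9, and 3 nearest genes per member. The alternatives were DESeq2 1.42.0, other scalings, filters and thresholds, fits of 2 groups, a replicate block, summed copies and leaving out each library. The values of 1 gene are left out here.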

Additional observations from a re-analysis of the deposited data

How the results depend on the processing

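The direction of the fold change of every member was kept in all 168 member values computed per comparison under the alternatives run, which were DESeq2, median-of-ratios or total-count scaling, no filter, at least 10 counts in every library, fits of 2 groups, a replicate block, summed copies and leaving out each library. Calls are less stable than directions where folds lie near 1.5. Scaling to total counts moved the median log2 fold change of all genes by -0.21 in hypoxia and to 0.17 with 32-134D, and genes called higher went from 49.0% to 34.5% of calls in hypoxia and from 54.2% to 72.0% with 32-134D. Under it 8 members were called higher in hypoxia (13.6% of all genes). In the other cytosolic pathway 3 genes were lower in hypoxia (25.8% of all genes) and 14 lower with 32-134D (8.15% of all genes). At least 10 counts in every library left out HSPA6. It gave 2 pathway genes lower in hypoxia (25.9% of all genes) and 5 members lower with 32-134D (13.7% of all genes). With FDR alone, 10 members and 56 pathway genes were lower with 32-134D (25.5% of all genes), and 4 pathway genes were lower in hypoxia (25.6% of all genes). Against vehicle at 20% O2, 9 members and 34 pathway genes were higher with FDR alone (7.81% of all genes). With a 2-fold threshold, 25 pathway genes were higher in hypoxia (10.8% of all genes). At that threshold 0 were higher and 8 lower with 32-134D (10.8% and 5.24% of all genes). Against vehicle at 20% O2, 2 members and 5 pathway genes were higher by 2-fold (1.25% of all genes). Among named genes, HSPA4L with 32-134D changed sign to 0.11 with total-count scaling and 0.016 with the filter in every library, and HSPA1L to 0.081 with total-count scaling and, against vehicle at 20% O2, to -0.020 without replicate 2 of that group, in a range of -0.020 to 0.41 over the libraries left out. Leaving out single libraries gave 1 to 2 pathway genes higher with 32-134D (14.9% to 17.5% of all genes). There was 1 without replicate 3 of 32-134D, which removed FKBP5. Against vehicle at 20% O2, 5 to 6 members were higher with single libraries left out (2.36% to 3.60% of all genes). The replicate numbers were checked for pairing by the correlation of deviations from group means, which ran from -0.21 to 0.085 over 9 pairs with 0 above 0.1. With 3 libraries a group this check cannot exclude a pairing. With a replicate block 9 members were called higher in hypoxia (18.9% of all genes) and 7 lower with 32-134D (13.3% of all genes). HSPA6, with 2 to 6 counts at 20% O2, is the member whose fold is limited by depth.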
